A study of Mus musculus with 48 samples.

Results

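Unnamed antisense transcription starts beside named promoters were examined in mouse T cells. A member was a tag cluster (a short stretch of mapped 5′ ends on 1 strand) with no gene symbol whose edge lay within 1000 bp of a cluster with exactly 1 symbol on the opposite strand. The nearest such cluster was its named partner. The rule used position and symbol alone, and no measured level. It found 712 members among 18025 clusters of the DO11.10 hybridoma table and 805 among 17272 clusters of the CD4 table. Of all clusters without a symbol, numbering 4477 and 3643, most lay elsewhere.

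The 5′ ends of capped RNA had been counted by CAGE (cap analysis of gene expression) in 48 libraries of 22 groups. In 12 groups the cells were DO11.10, a T hybridoma made from BALB/c and AKR/J material whose receptor recognises an ovalbumin peptide (pOVA), given at 0, 1, 10, 100, 1000 or 10000 nM. In the other 10 the cells were primary CD4+ T cells of BALB/cCrSlc mice, given the anti-CD3 antibody 2C11 at 0, 10, 100, 1000 or 10000 ng/ml. Each dose was used with and without engagement of PD-1, with 2 libraries per group and 3 at each 10000 dose. The hybridoma is 1 line, and the labels give neither the way PD-1 was engaged, nor the time, nor whether libraries of a group came from separate cultures or animals. All p-values therefore measure only the spread between these libraries, which may be technical.

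RNA polymerase II that loads at an active mammalian promoter often starts in both directions. The sense transcript becomes the mRNA, while the RNA made upstream on the other strand is usually short and is removed quickly by the nuclear exosome, so that its steady level is low. CAGE reads the capped 5′ end of each RNA and can therefore record both starts of 1 promoter apart. Starts that face away from the gene are called divergent here, and those that lie downstream of the named start and point back at it are called convergent. Antigen or anti-CD3 signals through the T cell receptor to NFAT, NF-kB and AP-1 factors and to immediate early genes such as Egr2 and Nr4a1, and PD-1 dampens that signal at the receptor.

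The promoters of Bcat1 and Egr2 are shown because their divergent starts had the highest called rises among the named starts of the CD4 table. Each run gives the 250 bases before the annotated start, 5′ to 3′ on the strand of the gene, from RefSeq on GRCm38.p6. Bcat1 lies at chr6:145076158-145076407 on the minus strand, and Egr2 at chr10:67535249-67535498 on the plus strand. RefSeq gives 2 starts for Bcat1 and 5 for Egr2, and the first listed was used. Capitals mark every match, on either strand, to 11 searched motifs.
Bcat1: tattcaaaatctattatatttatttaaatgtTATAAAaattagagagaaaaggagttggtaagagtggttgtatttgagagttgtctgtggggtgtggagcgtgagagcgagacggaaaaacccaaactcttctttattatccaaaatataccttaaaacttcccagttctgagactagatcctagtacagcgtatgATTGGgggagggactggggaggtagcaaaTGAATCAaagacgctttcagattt
Egr2: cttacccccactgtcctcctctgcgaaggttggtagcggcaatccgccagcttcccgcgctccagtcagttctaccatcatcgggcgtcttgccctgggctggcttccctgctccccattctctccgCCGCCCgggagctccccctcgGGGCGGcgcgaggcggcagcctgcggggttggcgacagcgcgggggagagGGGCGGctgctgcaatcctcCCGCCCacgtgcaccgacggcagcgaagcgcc

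The Bcat1 promoter held TATAAA at -219, CCAAT (minus strand) at -53 and TGANTCA at -24, counted back from the annotated start, and 5 CpG dinucleotides. The Egr2 promoter held GGGCGG at -123, -102, -52 and -32, and 26 CpG dinucleotides. Among all 27025 promoters of the table, TATAAA occurs in 13.0%, CCAAT in 34.5%, TGANTCA in 6.87% and GGGCGG in 32.9%. The other 7 motifs, TGACGTCA, CCGGAAGT, TGCGCATGC, AAGATGGC, GCGNGGGCG, GGANTTTCC and TGGAAA, were not in these windows. GCGNGGGCG can overlap GGGCGG. In the deposited clusters, which are on another build (mm9), the antisense start lay 63 bp from the named cluster at Bcat1 and 67 bp at Egr2. Promoter composition was not tested between partners and other genes, and nothing is read from it here. Of the hybridoma partners of divergent starts 79.4% had an entry in the RefSeq table, and of the other named genes 76.3%.

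The hybridoma libraries held 7.79 to 19.7 M tags and those of CD4 cells 4.42 to 22.8 M, so that 1 tag was worth 0.0507 to 0.128 RPM and 0.0438 to 0.226 RPM (RPM being tags per M tags of the library). T cell markers were present in both tables, 7 of 8 in the hybridoma (Cd4 was not among its clusters) with a summed level of 746 to 1132 RPM, and 8 of 8 in CD4 cells with 2799 to 4225 RPM. Erythroid markers (0 of 3) were not among the clusters of either system. Of 6 myeloid markers only Cst3 was found, at 72.0 to 97.1 RPM in the hybridoma and 146 to 194 RPM in CD4 cells, and Lyz2 and Csf1r were not. Of 6 markers of CD8 T and NK cells, 1 was found in the hybridoma (3.77 to 8.23 RPM) and 3 in CD4 cells (21.7 to 40.2 RPM). B cell markers (6 of 6) summed to 238 RPM in the second unengaged dose 0 library of the hybridoma and 204 RPM in the second engaged one, against 20.4 to 69.9 RPM in its other libraries. In CD4 cells they ran from 75.1 to 215 RPM, with 159 and 182 RPM in the unengaged dose 0 libraries and 83.0 to 114 RPM at 10000 ng/ml. Markers of antigen-presenting cells (4 of 4, class II genes and Cd74) gave 912 and 713 RPM in those same second dose 0 libraries of the hybridoma and 61.3 to 218 RPM in the others, and 380 to 1054 RPM in CD4 cells. In such bulk samples fewer cells of a type and less RNA per cell cannot be told apart.

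The antisense starts lay close to their partners and mostly upstream of them. In the hybridoma 523 of 712 (73.5%) were divergent and in CD4 cells 589 of 805 (73.2%). The median distance between the midpoints of a divergent pair was 190.5 bp in the hybridoma and 170 bp in CD4 cells, and of a convergent pair 324 and 365 bp. The median gap between cluster edges was 143 and 135 bp, and 51 and 43 starts overlapped their partner. Partners numbered 666 clusters of 610 genes in the hybridoma and 736 clusters of 668 genes in CD4 cells. Some starts, 76 and 113, shared a partner cluster with another start, and 264 and 331 had more than 1 named cluster in reach. The distance rule cut through a sparse tail, with 9 members in the last 100 bp inside the limit and 8 unnamed clusters in the 100 bp beyond it in the hybridoma (9 and 12 in CD4 cells).

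**Figure D1:**
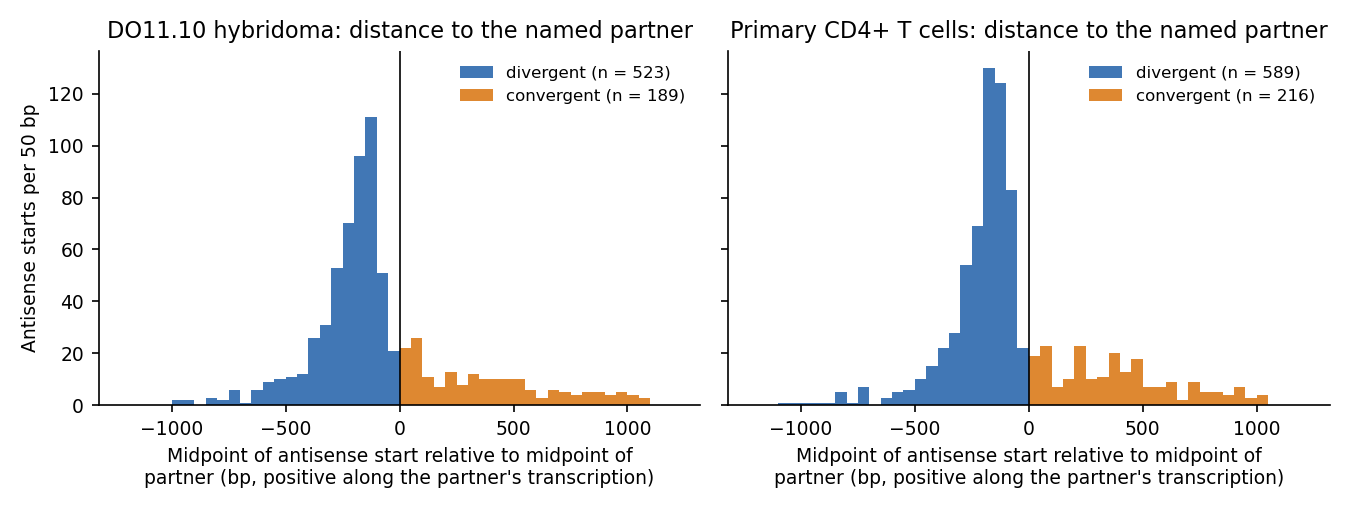
Number of antisense starts per 50 bp (vertical axis) by the distance in bp of the start's midpoint from the partner's midpoint (horizontal axis, negative upstream of the partner), for 712 hybridoma and 805 CD4 starts. In both tables the divergent starts, 523 and 589, pile up close upstream of the partner, with midpoint distances of 190.5 and 170 bp at the median, and the convergent ones spread thinly downstream.

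Antisense starts were rarer RNAs than their partners. Their mean level over all libraries had a median of 2.75 RPM in the hybridoma (range 0.344 to 857) and 2.78 RPM in CD4 cells (0.833 to 879), against 24.5 and 23.1 RPM for the partners. The median start reached 12.8% of the level of its partner in the hybridoma and 13.4% in CD4 cells. Divergent starts stood at 8.85 and 10.9% of the partner, convergent starts at 38.5 and 33.5%. In 80 hybridoma and 109 CD4 pairs the unnamed start was the more abundant of the pair. No member stayed below 3 RPM in every library, which is the floor of the deposited tables, and 371 and 405 members never reached 5 RPM. Starts below that floor were not analysed here, and all 712 and 805 members passed the filter of at least 1 RPM in at least 2 libraries.

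Among the deposited antisense starts of the hybridoma, more rose with pOVA than fell. At 10000 nM against 0, limma called 242 of 712 starts higher and 35 lower (34.0 and 4.92%), where 13.8% of all 18014 clusters tested were called higher and 16.2% lower at an adjusted p under 0.05. The median change of the starts was 0.40 on the log2(RPM + 1) scale, against -0.07 for all clusters. Their named partners gave 97 higher and 95 lower of 665, with a median of -0.03. Other unnamed clusters gave 22.3% higher and 8.40% lower. Divergent starts were called higher in 37.9% and convergent starts in 23.3%. Among clusters whose mean level lay between the quartiles of the starts, 32.7% of 355 starts, 19.8% of 1503 other unnamed clusters and 11.6% of 2172 named clusters were called higher.

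The floor of the table bears on this count. A cluster had to reach 3 RPM in some library, and 284 starts (39.9%) did so in libraries of 100 nM or more alone, against 4.95% of the partners and 10.0% of all clusters. These 284 held 173 of the 242 higher calls and 0 of the 35 lower ones. The other 428, which reached 3 RPM in a library of 0 to 10 nM, gave 69 higher and 35 lower. How many of these reached it at 0 to 10 nM alone was not counted, and the floor favours a fall at such starts. A start that entered the table only where it was high had to differ, so the counts and medians over starts describe the deposited clusters and support nothing about antisense starts at large. The same holds for the course over dose and for the pair counts, and in part for the comparison at matched levels. It also holds for single starts that lay far below 3 RPM at dose 0, among them those of Nr4a1, Slc3a2 and Uhrf1bp1l below. The floor favours a rise at such starts, so their p-values are no support for one.

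The count of higher starts fell to 118 without the second unengaged dose 0 library, which had the highest summed level of both marker lists, and to 130 without both second dose 0 libraries. With the 1 nM libraries as the reference in place of dose 0, a choice made after seeing the data, 216 starts were higher and 18 lower, against 12.5 and 10.7% of all clusters. The part of that RNA in the dose 0 comparison was not tested further. No share over all clusters was taken without the second dose 0 libraries. Those counts therefore do not show whether the starts moved against the background or fewer clusters were called in general.

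**Figure D2:**
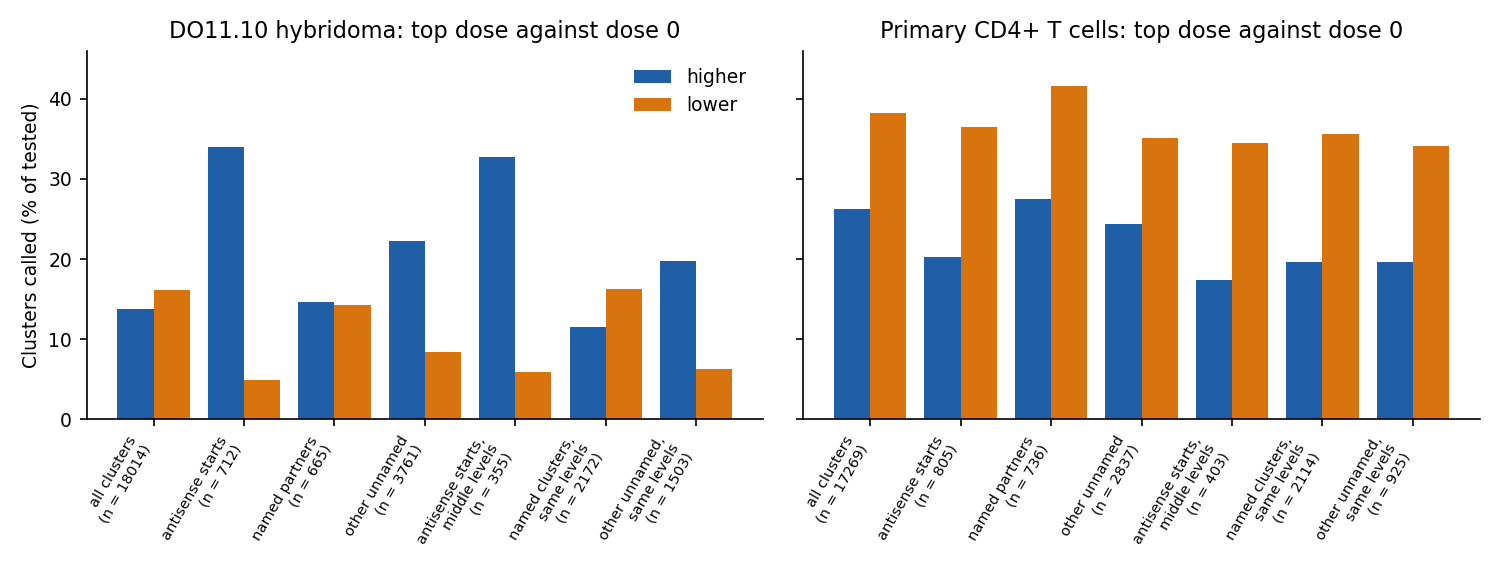
Percent of clusters called higher or lower at the top dose against dose 0 (bars, vertical axis) for all clusters, antisense starts, their named partners, other unnamed clusters, and the same classes limited to levels between the quartiles of the antisense starts. In the hybridoma the starts were called higher in 34.0% and all clusters in 13.8%, while in CD4 cells the corresponding values were 20.2 and 26.2%.

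Calls first appeared at 100 nM. No start was called in either direction at 1 nM (background 0% of all clusters) or at 10 nM (0.0278% higher). At 100 nM 92 were higher and 2 lower (5.76 and 2.91% of all clusters), and at 1000 nM 259 were higher and 31 lower (12.5 and 17.7%). The median level of the 712 starts per unengaged library was 2.50 and 2.18 RPM at 0, 2.31 and 2.30 RPM at 1 nM, and 2.31 and 2.29 RPM at 10 nM. It was 3.07 and 2.98 RPM at 100 nM, 3.38 and 3.59 RPM at 1000 nM, and 3.05, 3.29 and 3.47 RPM at 10000 nM. Every library of the 3 highest doses thus lay above every library of the 3 lowest doses, and the engaged libraries showed the same split, with 2.01 to 2.44 RPM up to 10 nM and 2.58 to 3.56 RPM from 100 nM on.

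**Figure D3:**
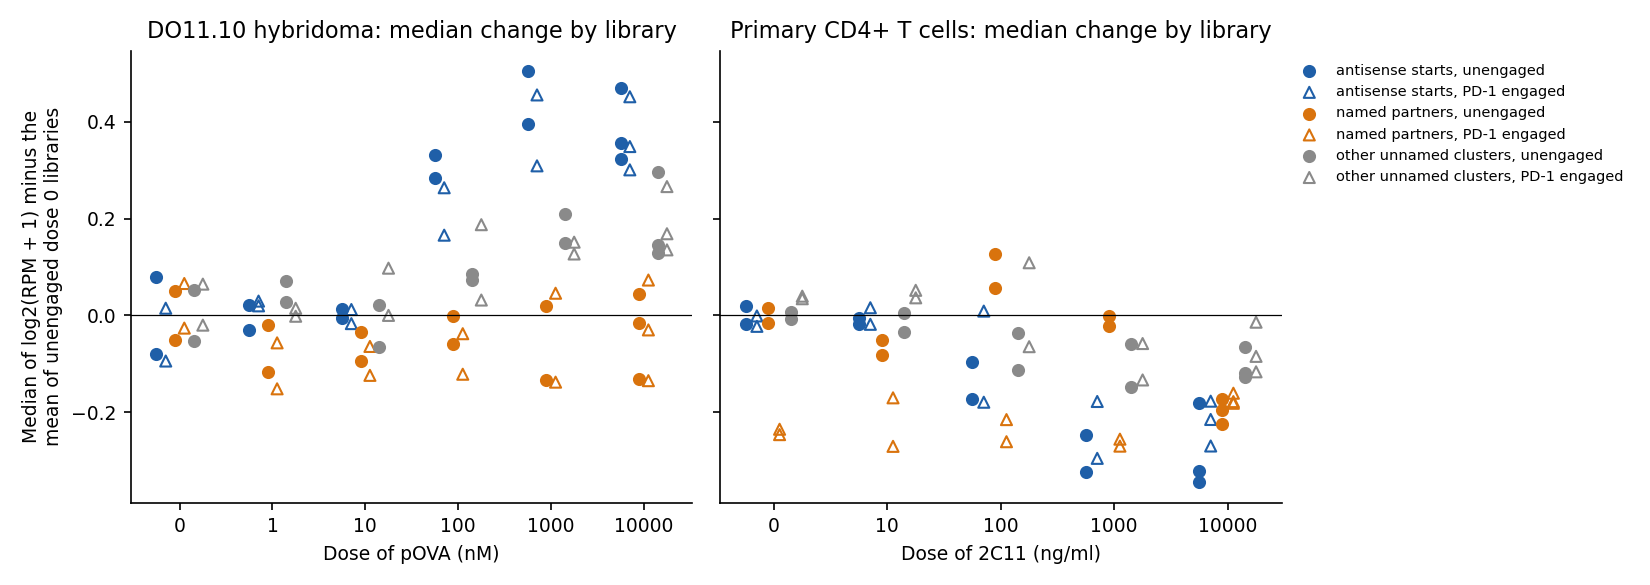
Median over antisense starts, named partners and other unnamed clusters of log2(RPM + 1) minus the mean of the unengaged dose 0 libraries (vertical axis), 1 point per library, by dose in nM of pOVA or ng/ml of 2C11 (horizontal axis), filled for unengaged and open for PD-1 engaged libraries. Hybridoma starts rise from 100 nM on while their partners stay near 0. In CD4 cells the starts fall with dose, and partners of engaged libraries lie below those of unengaged ones up to 1000 ng/ml.

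Nr4a1, an orphan nuclear receptor and immediate early gene of T cell receptor signalling, had a divergent start at chr15:101096952-101096990 on the minus strand (mm9), 286 bp from the partner. Its level was 0 and 0.06 RPM at dose 0, 0.07 and 0 RPM at 1 nM, 0.25 and 0.22 RPM at 10 nM, 4.76 and 2.82 RPM at 100 nM, 6.07 and 5.31 RPM at 1000 nM, and 6.02, 6.30 and 6.29 RPM at 10000 nM. All libraries from 100 nM on were thus above all libraries below it, and the start changed by 2.81 (SE 0.18, limma adjusted p = 6e-10). It rested on 1 tag at dose 0 and 194 at the top dose, so the limit set by the floor applies to its p-value. The mRNA start went from 28 and 43.8 RPM to between 1328 and 1537 RPM, a change of 5.32 (SE 0.24). On the log2(RPM + 1) scale the start lagged the partner by 2.51 (start minus partner -2.51, SE 0.28, adjusted p = 1.3e-06), but this scale compresses low levels. In plain RPM the start rose 207-fold (172-fold in pooled tags, exact 95% counting interval 30.5 to 6816) and the partner 40.1-fold (38.6-fold in pooled tags, 36.3 to 41.1), which lies inside the interval of the start. At 1 tag the plain ratios set no order between them.

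Slc3a2, the heavy chain of the CD98 amino acid transporter, had a start that rose beside a partner that was not called. Its convergent start at chr19:8786713-8786718 on the plus strand, 670 bp from the named start, gave 0.19 and 0.06 RPM at dose 0, 1.08 and 1.29 RPM at 10 nM, 6.57 and 5.80 RPM at 100 nM, and 7.42, 9.37 and 8.35 RPM at 10000 nM. The change was 3.06 (SE 0.21, adjusted p = 2e-09), from 3 tags at dose 0 to 262 at the top dose. The named start stayed between 14.07 and 21.3 RPM in all 26 libraries, with a change of 0.06 (SE 0.13, adjusted p = 0.72), and the pair difference was 2.99 (SE 0.21, adjusted p = 7.5e-10). A newer annotation (GENCODE M21) lists the noncoding gene Snhg1 head to head with Slc3a2, upstream of it. The convergent start lies downstream of the named start, and it was not matched to Snhg1.

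Uhrf1bp1l held the largest rise among the named starts of the hybridoma, again at a convergent start (chr10:89208540-89208565, minus strand, 782 bp from the partner). Its level was 0.19 and 0 RPM at dose 0, 3.50 and 3.95 RPM at 100 nM, and 6.60, 11.6 and 8.48 RPM at 10000 nM. The change was 3.15 (SE 0.21, adjusted p = 1.3e-09), against 0.44 (adjusted p = 0.069) for the partner. Plec, which codes for a linker of the cytoskeleton, went from 0.83 and 0.29 RPM to 9.32, 9.10 and 10.9 RPM, a change of 2.81 beside 1.40 in the partner. Tmod1, an actin filament capping protein, gave 2.66 beside 1.82.

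Other starts rose by less. Dusp4, a MAP kinase phosphatase, rose at both starts, by 2.01 antisense (1.02 and 0.77 RPM to 5.77, 6.91 and 7.32 RPM) and by 2.57 at the mRNA start. Their difference of -0.56 was not called (adjusted p = 0.13). Lef1, a transcription factor of T cell development, also rose at both, by 1.75 and 1.97. At Brd2, a bromodomain protein, the antisense start went from 3.34 and 2.60 RPM to 13.3, 14.9 and 15.8 RPM (1.98, adjusted p = 9.5e-07), while the partner held 17.6 to 27.6 RPM in all libraries and changed by 0.16. The same held at Eif5a, a translation factor (1.77 beside -0.03). At Smc3, a cohesin subunit, the start rose by 1.89 and the partner fell by 0.42.

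Starts that fell were few and changed less. A pair of convergent starts at Malat1, an abundant nuclear noncoding RNA, changed by -1.04 (SE 0.34, adjusted p = 0.027) and -1.20 (SE 0.41, adjusted p = 0.034), with 0.22 at the partner (not called). The larger of them went from 23.6 and 19.4 RPM at dose 0 to 7.91, 12.4 and 6.81 RPM. Starts at Ly6e (-0.85), the histone genes Hist1h1b (-0.76) and Hist1h3g (-0.72), Mafg (-0.75) and Mknk2 (-0.74) also fell. The count of lower starts was 15 without the third library of 10000 nM.

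Tested pair by pair, the start rose relative to its partner in 191 of 712 hybridoma pairs and fell in 42 (26.8 and 5.9%), with a median difference of 0.34. In 871 divergent pairs of named clusters, the less abundant minus the more abundant start was higher in 10.9% and lower in 15%. At 100 nM 47 antisense pairs were higher and 8 lower (6.6 and 1.12% of these pairs, 1.15 and 1.84% of the named pairs). At 1000 nM there were 225 and 32 (31.6 and 4.49%, named pairs 10.1 and 13.1%), and with the 1 nM reference 128 and 28 (18 and 3.93%, named pairs 8.04 and 11.7%). Of the 191 pairs, 111 had a higher start and a partner that was not called, 23 a higher start and a lower partner, and 31 a lower partner alone. Both rose in 10, and in 16 neither was called alone. Of the 242 starts that rose, the partner was also higher in 59, lower in 23 and not called in 160. Over pairs the changes correlated with Pearson's r 0.35 and Spearman's rho 0.28 (n = 711 pairs of the same libraries, a description without a test). The ratio of plain RPM ran the same way in 189 of 190 higher pairs and 41 of 42 lower ones, Nr4a1 being the exception among the latter.

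Leaving out the second unengaged dose 0 library took the 191 pairs to 56, leaving out the third 10000 nM library to 112, and requiring at least 3 RPM in both clusters to 62. The 42 lower pairs became 24 without the former library and 27 without the first dose 0 library.

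Single pairs went apart in both directions. At Arl15, a small GTPase gene, the divergent start (gap 101 bp) went from 2.04 and 1.71 RPM to 6.10, 7.79 and 8.99 RPM while the partner went from 16.2 and 21.7 RPM to 9.73, 11.2 and 10.1 RPM. Neither group of libraries overlapped the other, and the changes were 1.57 and -0.80 (difference 2.38, SE 0.29, adjusted p = 3.1e-06). Mtmr4, a lipid phosphatase, gave 0.71 and -1.21. At Sult2b1, a sulfotransferase acting on sterols, the named start was nearly silent at dose 0 (0.09 and 0.12 RPM, 3 tags) and reached 14.3, 13.8 and 11.04 RPM, a ratio of 123 in pooled tags (exact 95% counting interval 41.8 to 599). Its antisense start went from 7.97 and 6.72 RPM to 12.4, 11.6 and 10.9 RPM (0.60, adjusted p = 0.0031), and the difference was -3.06 (SE 0.20, adjusted p = 2.4e-10). At Nfkbid, a nuclear IkB protein, the partner rose by 2.22 and the start by 0.36 (adjusted p = 0.18).

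The pairs at Zmym5 and Ywhaz did not hold their direction. At Zmym5 the difference was 2.94 (adjusted p = 0.014), with partner levels of 0.22 to 21.5 RPM between libraries, and it was -0.90 with the 1 nM reference. At Ywhaz, a 14-3-3 protein, it was -2.12 with the nearest named cluster and 0.25 with the most abundant named cluster in reach.

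**Figure D4:**
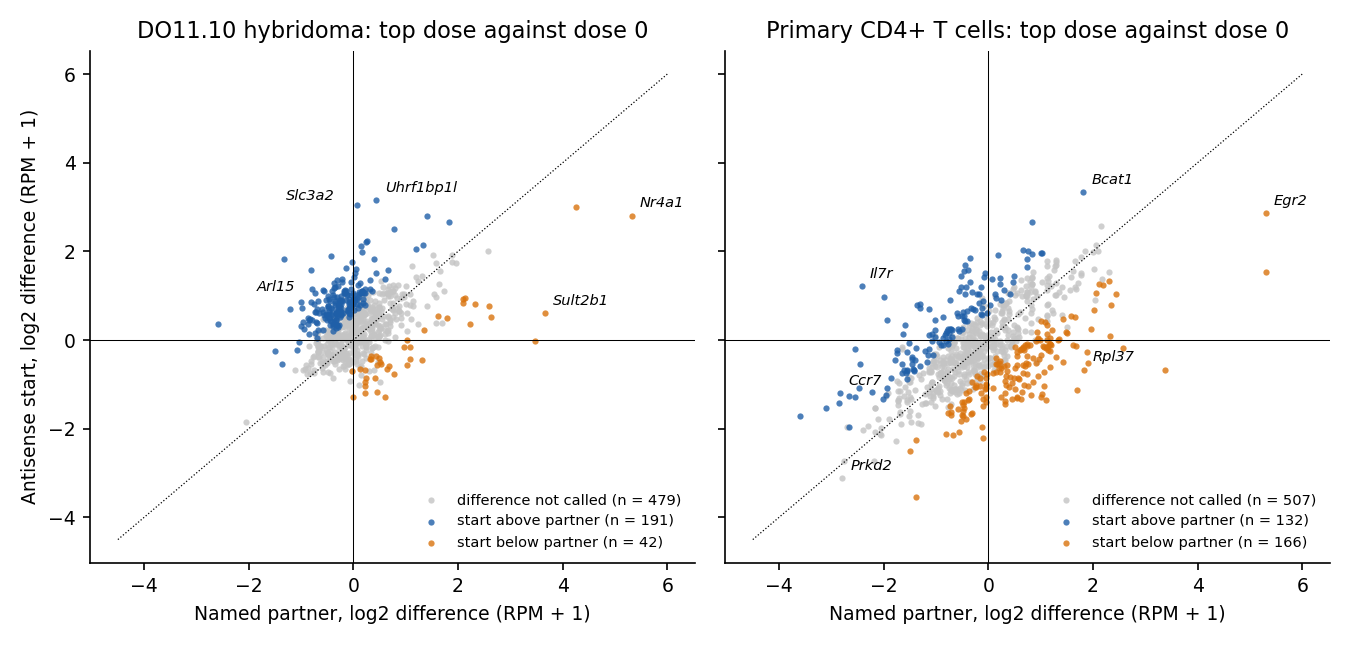
Change of the antisense start (vertical axis) against that of its named partner (horizontal axis), both as log2 difference of RPM + 1 between the top dose and dose 0, 1 point per pair, with called differences in colour and the line of equal change dotted. In the hybridoma 191 pairs lie above the line and 42 below among those called, in CD4 cells 132 and 166; 1 hybridoma pair whose partner was below the filter has no point.

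In CD4 cells more antisense starts fell than rose, and the same held over all clusters. At 10000 ng/ml against 0, 163 of 805 starts were called higher and 294 lower (20.2 and 36.5%), where 26.2% of all 17269 clusters were higher and 38.2% lower. The median change was -0.28, against -0.15 for all clusters and -0.21 for the partners, of which 202 of 736 were higher and 306 lower. Between the quartiles of the starts' levels, 17.4% of the starts, 19.6% of named clusters and 19.6% of other unnamed clusters were higher. The starts' shares were thus near the background or below it. Here 193 starts (24.0%) reached 3 RPM only at 100 ng/ml or more, against 4.48% of the partners and 10.8% of all clusters, and they held 111 of the 163 higher and 2 of the 294 lower calls. The other 612 gave 52 higher and 292 lower. How many of them reached 3 RPM at 0 or 10 ng/ml alone was not counted, and the floor favours a fall at such starts. The starts of Bcat1, Egr2 and Klhdc2 named below lay far below 3 RPM at dose 0. The floor favours a rise there, so their p-values are no support for one. No start was called at 10 ng/ml (0% of all clusters), 31 were higher and 65 lower at 100 ng/ml (13.6 and 7.18%), and 138 and 272 at 1000 ng/ml (28.1 and 29.9%). The median level of the starts was 3.07 and 3.21 RPM in the unengaged dose 0 libraries and 2.82, 2.41 and 2.55 RPM at 10000 ng/ml, with no overlap.

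The named rises in CD4 cells were led by Bcat1, the cytosolic branched-chain aminotransferase, whose promoter is printed above. Its divergent start (chr6:145023789-145023929, plus strand) went from 0.143 and 0 RPM to 11.6, 8.86 and 9.01 RPM, a change of 3.33 (SE 0.21, adjusted p = 1.6e-10). The named start went from 0.143 and 0.230 RPM to 3.41, 2.54 and 3.60 RPM (1.81, SE 0.20), so the unnamed start was the more abundant one in every unengaged top-dose library. The start rose 110-fold in pooled tags (95% counting interval 30.2 to 909, from 2 tags). The partner rose 16.8-fold (6.40 to 62.7, from 4 tags), and the intervals overlap.

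At Egr2, a zinc finger factor induced by T cell receptor signalling, 2 divergent starts share the partner. The one farther from it (chr10:66998079-66998167, minus strand) gave 0.214 and 0.115 RPM at dose 0, 0 and 0.212 RPM at 10 ng/ml, 1.82 and 1.68 RPM at 100 ng/ml, 9.20 and 7.58 RPM at 1000 ng/ml, and 6.99, 7.98 and 7.36 RPM at 10000 ng/ml. Its change was 2.86 (SE 0.23, adjusted p = 4.7e-09) and that of the other start 1.52. The mRNA start went from 1.07 and 0.918 RPM to 70.0, 81.1 and 82.0 RPM (5.30, SE 0.16). Both differences were called (-2.44 and -3.77). The pooled tags gave 43.1-fold for the farther start (16.7 to 159) and 77.1-fold for the mRNA (51.3 to 122), with intervals that overlap.

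Other rises were at Klhdc2 (2.67), Ptger2, a prostaglandin receptor (2.56 beside 2.16 in the partner), Ung, a uracil DNA glycosylase (1.99 beside 2.00), and Cish, an inhibitor of cytokine signalling (1.95 beside 1.01). The falls were larger in number. At Prkd2, a kinase downstream of diacylglycerol, the start went from 10.6 and 10.6 RPM to 0.427, 0.175 and 0.450 RPM (-3.11, SE 0.17, adjusted p = 2.5e-11), and its partner changed by -2.79. At Frmd8 (-2.73 and -2.76) and Rere (-2.72 and -2.19) both starts also fell together. At Slc39a4, a zinc transporter, the start changed by -2.22 and the partner by -0.10 (not called). Tgtp2, an interferon-induced GTPase, gave -3.53, with 32.5 and 5.17 RPM in its dose 0 libraries. At the top dose the starts of Prkd2, Frmd8, Rere and Tgtp2 had means of 0.351, 0.369, 0.416 and 0.261 RPM, far below 3 RPM. The floor favours a fall at such starts, so their p-values are no support for one.

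In CD4 pairs the start was higher relative to its partner in 132 and lower in 166 (16.4 and 20.6%). In 848 divergent pairs of named clusters, the less abundant minus the more abundant start was higher in 18.4% and lower in 42.6%. The lower share of the antisense pairs is below that of the named pairs, but the sets are unlike. In both systems the antisense pairs include convergent ones, and the sets of pairs were not matched for level. At 100 ng/ml 5 were higher and 30 lower (0.621 and 3.73% of these pairs, 3.89 and 13.1% of the named pairs). At 1000 ng/ml there were 75 and 188 (9.32 and 23.4%, named pairs 15.2 and 40.1%), and with the 10 ng/ml reference 111 and 185 (13.8 and 23%, named pairs 18.6 and 41.5%). Of the 163 starts that rose, the partner was also higher in 97 and lower in 22, and of the 294 that fell, the partner was also lower in 196 and higher in 36. Pearson's r over 805 pairs was 0.58 and Spearman's rho 0.55, as a description. With at least 3 RPM in both clusters 52 pairs were higher and 82 lower. Without either dose 0 library the higher pairs numbered 83 and 86, and without the second the lower pairs numbered 107.

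At Il7r, the receptor of a survival cytokine of naive cells, the starts of the pair moved in opposite directions. The antisense start, which overlaps the partner (chr15:9459526-9459632, minus strand), gave 1.22 and 1.72 RPM at dose 0 and 4.35, 4.12 and 5.71 RPM at the top dose (1.21, SE 0.20, adjusted p = 2.5e-05). The mRNA start went from 126 and 130 RPM to 22.9, 20.6 and 26.1 RPM (-2.42), and the difference was 3.63 (SE 0.23, adjusted p = 2.8e-10). At Pdcd4, a translation inhibitor, the partner went from 174 and 187 RPM to between 28.1 and 31.0 RPM (-2.55) while the start held 2.40 to 6.20 RPM in all 22 libraries (change -0.20, adjusted p = 0.52). At Hivep2 the start rose by 1.68 and the partner fell by 0.45. In the opposite direction, the partner of Rpl37, a ribosomal protein gene, rose by 1.84 and the start fell by 0.66 (difference -2.50, adjusted p = 5.5e-08). Eif3j (start -1.12, partner 1.70) and Taf1d (start -1.34, partner 1.11) showed the same opposition. At Rbx1 the partner ran from 8.36 to 482 RPM between libraries, and the difference of -4.04 (adjusted p = 0.0089) was 0.67 with the 10 ng/ml reference. At Sh2d2a a difference of 2.38 became -0.23 with the most abundant named cluster as partner.

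**Figure D5:**
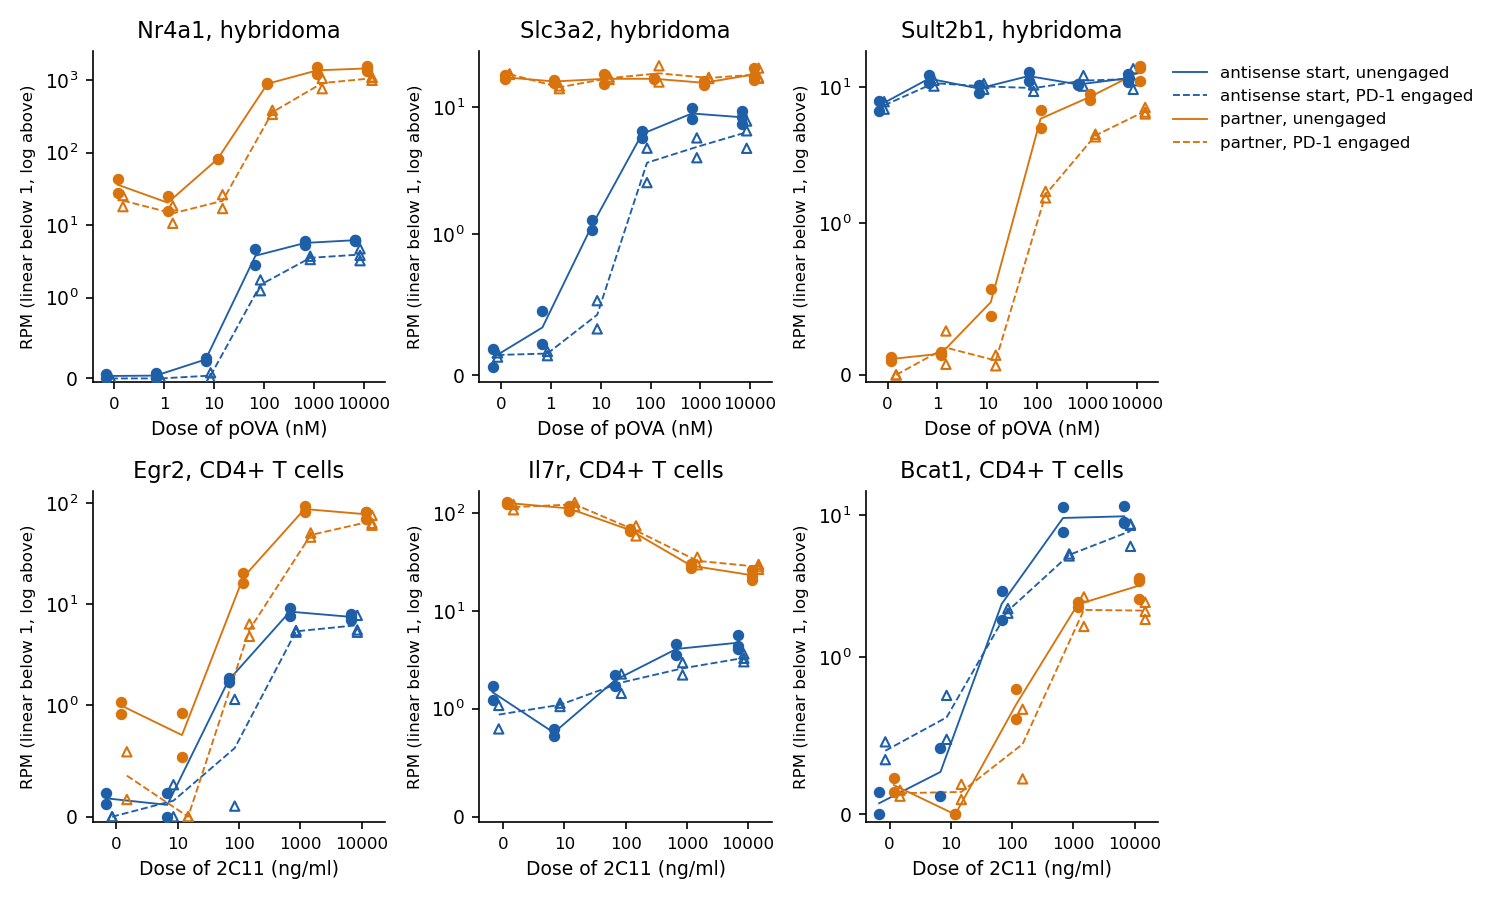
Levels in RPM (vertical axis, linear below 1 and logarithmic above) of the antisense start and the named partner of 6 pairs by dose (horizontal axis), 1 point per library, lines through group means, solid and filled for unengaged and dashed and open for PD-1 engaged cells. The start of Slc3a2 rises beside a flat partner, the partner of Sult2b1 rises far more than its start (3.66 against 0.60), and those of Il7r move in opposite directions.

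Gene groups were read from 10 lists of partner genes. Against them stand the shares over all starts, 20.2% higher and 36.5% lower in CD4 cells and 34.0% and 4.92% in the hybridoma, and over all clusters, 26.2% and 38.2% and 13.8% and 16.2%. The lists are small, and no list was tested against these shares. In CD4 cells 12 starts lay beside 8 of 25 quiescence and naive-state genes, and 8 of them fell and none rose (median -1.44), with the partner lower for 10. Examples are Ccr7, a lymph node homing receptor (start -1.20, partner -2.84), and Satb1, a chromatin organiser (start -1.82, 34.4 and 34.2 RPM to 7.59, 9.69 and 9.91 RPM, partner -0.52). At Lef1 a start at chr3:130814885-130815005 on the minus strand changed by -1.97 with its partner at -0.12 (not called), and a second start by -1.78 with another partner at -1.89. Beside early TCR-induced transcription factors 4 of 6 starts rose and 1 fell, with 4 partners higher, and 5 of the 6 differences were lower, among them Egr2 and Nfil3 (1.34 beside 2.32). Beside feedback regulators 5 of 10 rose and 2 fell, such as Socs1 (1.60 beside 2.03) and Dusp4 (1.77 beside 1.30).

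The other lists gave counts from which nothing is read beyond the shares of all starts. Beside surface receptors in CD4 cells 2 of 5 starts rose and 1 fell, beside NF-kB and NFAT factors 1 of 5 rose and 2 fell, and beside ribosome biogenesis genes 2 of 2 rose. Beside cell cycle genes 1 of 5 rose and 2 fell, beside survival and stress genes 1 of 7 and 1, and beside splicing factors 2 of 10 and 1. In the hybridoma 3 of 11 starts beside survival and stress genes rose, as did 2 of 3 beside NF-kB and NFAT factors, 1 of 3 beside feedback regulators (Dusp4), 1 of 3 beside quiescence genes (Lef1), 1 of 2 beside ribosome biogenesis genes and 1 of 8 beside splicing factors. None of these fell, and none of 3 beside cell cycle genes was called. The only hybridoma start beside an early transcription factor was that of Nr4a1. No start in either table lay beside a listed cytokine or chemokine gene.

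PD-1 engagement lowered few antisense starts of the hybridoma. Averaged over the stimulated doses, engaged minus unengaged, 11 of 712 starts were lower and 0 higher (limma, background 1.72% lower and 0.0999% higher, with 57 starts at an unadjusted p under 0.05). With the pairing of same-numbered libraries as a block the counts were 22 lower and 5 higher, with no share over all clusters taken. On the recovered tags edgeR called 2 starts lower and 0 higher, and over all 18014 clusters 112 lower and 18 higher. The floor of 3 RPM bears on the engagement counts of both systems. It favours a lower value with engagement at starts that reached it in unengaged libraries alone. It favours a higher value where engaged libraries alone reached it, and how many starts did either was not counted. Of the 11, 8 were convergent and 3 divergent. They lay beside Uhrf1bp1l (-0.57), Gm17173 (-0.55), Slc3a2 (-0.52), Nr4a1 (-0.47), Hccs (-0.46), Aftph (-0.42), Ywhaz (-0.41), Hivep2 (-0.40), Plec (-0.38), Iqcf3 (-0.38) and Tmod1 (-0.34). By dose, 6 were lower at 100 nM, 1 at 1000 nM and 1 at 10000 nM (background 1.09, 0.272 and 0.677%), and 3 were higher at 10000 nM (0.128%) and none at 100 and 1000 nM (0.0222 and 0.00555%). Without 1 library at a time the 11 became 6 to 13, with 6 or 7 after leaving out the second unengaged 1 nM, the first unengaged 10 nM or 100 nM, either engaged 1 nM, the second engaged 10 nM or the first engaged 100 nM library.

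The level of the Uhrf1bp1l start shows the size of these changes. It was 3.50 and 3.95 RPM unengaged and 0.78 and 1.68 RPM engaged at 100 nM, 7.29 and 8.15 against 3.44 and 3.54 RPM at 1000 nM, and 6.60, 11.6 and 8.48 against 4.59, 5.73 and 4.45 RPM at 10000 nM. The engaged libraries lay below the unengaged ones at each of these doses, with a mean change of -0.57 (SE 0.10, adjusted p = 0.0027).

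The start of Nr4a1 likewise gave 1.25 and 1.76 RPM at 100 nM, 3.73 and 3.36 RPM at 1000 nM, and 3.84, 4.72 and 3.24 RPM at 10000 nM under engagement, each below the unengaged levels given above. Its change was -0.47 (SE 0.08, adjusted p = 0.0032) and that of the Nr4a1 mRNA start -0.94. The start minus partner difference of 0.48 had an adjusted p of 0.22, and 0.020 with the block.

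The Slc3a2 start gave 4.78 and 2.56 RPM engaged at 100 nM, 4.02 and 5.76 RPM at 1000 nM, and 4.77, 7.82 and 6.55 RPM at 10000 nM, where the last group overlaps the unengaged one. Its difference from the partner was the only one called lower (-0.55, SE 0.10, adjusted p = 0.0065, 0.0012 with the block), beside a partner change of 0.02. The only pair called higher was Sult2b1 (0.64, SE 0.09, adjusted p = 0.0006), where the mRNA start changed by -0.69, with 1.72 and 1.54 against 6.75 and 4.99 RPM at 100 nM, and the antisense start by -0.05. So 1 pair (0.14%) was called in each direction, and 8 higher and 6 lower with the block, which added Uhrf1bp1l (-0.50, adjusted p 0.22 without and 0.0042 with it) and Nfkbid (0.41, 0.22 and 0.0065).

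In CD4 cells, on the scale of the deposited totals, many named partners were lower with PD-1 engagement and few antisense starts were called. Over the stimulated doses 48 of 805 starts were higher and 30 lower (5.96 and 3.73%), with a median of 0.03, where 7.19% of all clusters were higher and 28% lower, with a median of -0.10. The partners gave 24 higher and 335 lower of 736 (median -0.17). Partners were also the more abundant RNAs, and these counts are not matched for level. Without stimulation, engagement lowered 8.51% of named clusters, but 1.18% of those between the quartiles of the starts' levels (2.32% higher, median -0.14). Of the starts between those quartiles 0.496% were lower and 0.496% higher (median -0.03). The part of level in the counts was not tested. Other unnamed clusters gave 18.9% higher and 8.21% lower. The balance rests on the scale of the comparison. With edgeR and TMM scaling 102 starts were higher and 10 lower, and over all clusters 2337 were higher and 2174 lower, against 1241 and 4835 with limma. Quantile normalization moved the median of all clusters from -0.10 to -0.01, and with stimulation from -0.15 to -0.02. The higher starts numbered 25, 29 and 28 without the second unengaged 100 ng/ml, the second unengaged 1000 ng/ml or the first engaged 100 ng/ml library, and the lower ones 19 without the first engaged 10 ng/ml library. B cell markers summed to 185 and 179 RPM in the engaged and 122 and 135 RPM in the unengaged libraries of 100 ng/ml. Markers of antigen-presenting cells summed to 856 and 1009 against 571 and 696 RPM at 100 ng/ml, 722 and 908 against 455 and 600.2 RPM at 1000 ng/ml, and 713 to 1054 against 482 to 786 RPM at 10000 ng/ml. The part of these cells in the differences was not tested.

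The pair test sets the start against its partner and does not show which of them moved. The start rose relative to its partner in 107 pairs and fell in 5 (13.3 and 0.621%), with a median difference of 0.18. In named divergent pairs the less minus the more abundant start was higher in 9.79% and lower in 7.67%. Of the 107 pairs, 92 had a lower partner and 22 a higher start, 13 of them both. The pair difference cancels a factor common to both clusters of a library, although the added pseudocount weighs more on the rarer start. Under quantile normalization 32 pairs were higher and 7 lower, and with at least 3 RPM in both clusters 54 and 1. Without 1 library the higher count ranged from 31 to 133, with 31 without the second unengaged 100 ng/ml library, 45 without the second unengaged 1000 ng/ml, 57 without the first engaged 1000 ng/ml and 64 without the first engaged 10 ng/ml library.

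Counts were also taken dose by dose. Without stimulation 14 starts were higher and 6 lower (2.67 and 6.83% of all clusters) and 116 of 736 partners were lower. At 10 ng/ml 0 starts were called in either direction (0.151 and 0.272%). At 100 ng/ml 29 were higher and 25 lower (4.94 and 24.5%) with 309 partners lower, at 1000 ng/ml 12 and 9 (2.02 and 10.5%) with 142 partners lower, and at 10000 ng/ml 5 and 3 (3.31 and 1.49%) with 19 partners lower and 38 higher. The change with engagement averaged over the stimulated doses minus that at dose 0 (an interaction term) called 0 starts and 0 pairs with limma (52 and 33 at an unadjusted p under 0.05).

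Cpsf2, a subunit of the mRNA cleavage and polyadenylation machinery, had a start that rose with engagement while the partner fell. The start gave 11.2 and 9.83 RPM unengaged against 12.4 and 17.4 RPM engaged at 100 ng/ml, 14.4 and 14.6 against 19.3 and 17.4 RPM at 1000 ng/ml, and 17.0, 14.6 and 14.6 against 18.8, 19.5 and 19.9 RPM at 10000 ng/ml. The engaged libraries were higher at each of these doses (0.32, SE 0.07, adjusted p = 0.0028). On the same scale the partner changed by -0.34 and the difference was 0.66 (SE 0.12, adjusted p = 0.0034).

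Tbc1d22a, a TBC-domain protein gene, had a start more abundant than its partner. Its start gave 35.1 and 32.7 against 40.5 and 50.1 RPM at 100 ng/ml, and 39.0, 38.8 and 38.6 against 48.2, 48.0 and 49.7 RPM at 10000 ng/ml, again without overlap. The changes were 0.34 for the start (SE 0.06, adjusted p = 0.00039) and -0.21 for the partner, and their difference was 0.55 (adjusted p = 0.0058).

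Higher starts also lay beside Prkd2 (0.51, SE 0.09), Fancl, a ubiquitin ligase of the Fanconi pathway (0.42), Atp1b3, a sodium pump subunit (0.42), Frmd8 (0.38), Btbd9 (0.37), E2f2, a cell cycle factor (0.37), and Ankhd1 (0.37). Prkd2 and Frmd8 starts had fallen with 2C11, and both contrasts use the same unengaged libraries. The lower starts included Ly6a, the gene of the surface protein Sca-1 (-0.55, SE 0.08, adjusted p = 7.2e-05), with 9.82 and 11.03 against 4.75 and 5.54 RPM at 100 ng/ml and 7.68, 6.49 and 6.16 against 4.29, 4.33 and 4.02 RPM at 10000 ng/ml, without overlap at either dose. Relb, an NF-kB subunit, gave -0.57 at the start and -0.45 at the partner. Slfn2 (-0.45), Rqcd1 (-0.38), Ezh2, a histone methyltransferase (-0.35), Srgn (-0.34), Brd2 (-0.30), Hcst (-0.27) and SNORD60 (-0.22) were also lower.

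At Egr2 both starts of the pair were lower with engagement. The antisense start gave 1.82 and 1.68 against 1.13 and 0.0950 RPM at 100 ng/ml, 9.20 and 7.58 against 5.25 and 5.45 RPM at 1000 ng/ml, and 6.99, 7.98 and 7.36 against 5.24, 7.71 and 5.53 RPM at 10000 ng/ml, where the groups overlap. The change was -0.40 (SE 0.12, adjusted p = 0.016), beside -0.85 for the mRNA start. The difference of 0.45 had an adjusted p of 0.041, which was 0.0985 with a pseudocount of 0.5 RPM and 0.170 with quantile normalization. Beside the early transcription factors as a list, 1 of 6 starts was lower and 4 partners were, and beside the feedback regulators 1 of 10 starts was higher and 1 lower with 7 partners lower.

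The tables shared part of their antisense starts. Of the hybridoma starts 382 (53.7%) overlapped a CD4 start on the same strand, and of the CD4 starts 391 (48.6%) overlapped a hybridoma start, which made 393 pairs, 392 of them with the same partner gene. Among these 393, stimulation raised 107 and lowered 23 in the hybridoma and raised 101 and lowered 102 in CD4 cells. Both systems were higher in 49 and lower in 13, while 14 were higher in the hybridoma and lower in CD4 cells and 1 the reverse. The tables had been normalized separately, so no test was made across them. By GENCODE M21, 55 of 443 hybridoma partners of divergent starts that could be matched (12.4%) have an annotated gene head to head with them, as have 18.2% of other named genes. The neighbour is protein coding for 2.71% of the partners and 12.6% of the other genes, and noncoding only for 9.71 and 5.54%. For CD4 cells the totals are 61 of 481 (12.7%) and 17.7%, with 2.91 and 12.4% protein coding and 9.77 and 5.35% noncoding only. The rule admits only starts without a symbol, which itself bears on the protein-coding share. Most matched partners have no annotated gene in that position.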

How the data were processed

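CAGE 5′ ends were counted in 48 libraries. The deposited RPM values per cluster were scaled by the authors to the library total, and low values were whole multiples of 1 tag (100% of values under 20 RPM within 0.1 tag). The submitters' processing notes name HISAT2 2.0.5, BWA 0.7.12 and the build mm9 without their roles. How clusters were called and named, the strand handling of the tags and whether coordinates count from 0 or 1 are not given in the sources used here.

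Members and partners were found by position, with ties on distance going to the more abundant cluster. The members and all lists were chosen with earlier results of these data known. limma 3.58.1 (trend, R 4.3.3) was fitted per table on log2(RPM + 1) with 1 mean per group, over clusters that reached 1 RPM in 2 or more libraries. Pairs were fitted as start minus partner. Tests are two-sided, with Benjamini-Hochberg adjustment over all clusters (or all pairs) of a table and a threshold of 0.05. Fold changes on this scale understate the change of low starts. edgeR 4.0.16 (quasi-likelihood, TMM) on recovered tags was an alternative. The scripts were tested on simulated data. Counting intervals are exact and cover counting error only, since tags carry no molecular identifiers.

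Hybridoma libraries that share dose and number, 1 engaged and 1 not, deviated together (correlations of 0.212 to 0.563 over 11322 clusters), so a block by dose and number is given for PD-1 engagement where it changes a call or a count. The labels give the numbers and no reason for them. In CD4 cells (-0.0419 to 0.274) and between dose 0 and the top dose, unengaged, the numbers did not meet the bar of 0.1 in every pair. Other pairs of doses were not compared.

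Named in the text, per system and away from predicted gene models, are up to 8 called starts per direction and contrast. They have at least the median level of all starts, and show no overlap of top-dose and dose 0 libraries (stimulation) or 1 sign at every stimulated dose (PD-1). Also named are up to 5 called pairs per direction with at least 3 RPM in both clusters, up to 3 starts per partner list (10 lists), and starts beside 8 fixed genes. The 11 hybridoma starts lower with engagement are all named, after their values were seen. Cell type markers were 6 lists.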

Additional observations from a re-analysis of the deposited data

Results flagged for a closer look

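Starts present in both tables moved in opposite directions with stimulation at 13 places, where both systems passed the threshold and top-dose and dose 0 libraries did not overlap in either. Of all 393 matched pairs, 107 were higher in the hybridoma and 102 lower in CD4 cells, and 14 were both. Calls in the same direction were more common, with 49 higher and 13 lower in both systems. No share over all clusters found in both tables was taken. The difference between the systems was not tested, since the tables were normalized separately and the stimuli differ. Of the 13 places, 6 had at least the median level in both tables and lay beside a named gene that is no predicted model. The start beside Arl15 changed by 1.57 in the hybridoma and by -0.75 in CD4 cells. That beside Lef1 changed by 1.75 and -1.97. The start at Pdss2, an enzyme of ubiquinone synthesis, gave 0.54 and -0.84, that at Sp1, a transcription factor that binds GC boxes, 0.73 and -0.50, and that at Ptp4a2, a phosphatase, 0.55 and -0.44. Ung was the reverse, with -0.57 in the hybridoma and 1.99 in CD4 cells.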

How the results depend on the processing

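Counts are given as starts or pairs called higher, then lower. Apart from edgeR and the lowest stimulating dose as reference, no share over all clusters or named pairs was taken under these settings. With hybridoma stimulation, quantile normalization gave 156 higher starts and 125 higher pairs. Without both dose 0 libraries numbered 2 there were 130 higher starts and 61 and 24 pairs. The 1 nM reference, chosen after seeing the data, gave 18 lower starts. With at least 3 RPM in both clusters there were 62 and 11 pairs. Leaving out 1 library gave 118 to 245 higher and 15 to 33 lower starts, and 56 to 217 higher and 24 to 43 lower pairs. With hybridoma PD-1 engagement, the block gave 5 and 22 starts and 8 and 6 pairs, and quantile normalization 2 and 2 pairs. Without both dose 0 libraries numbered 2 there were 1 higher start and 2 higher pairs. The gap of at most 500 bp gave 4 lower starts and 0 lower pairs, and edgeR 2 lower starts. Leaving out 1 library gave 6 to 13 lower starts, and 1 to 2 pairs in either direction. With CD4 stimulation at least 3 RPM in both clusters gave 52 and 82 pairs, and leaving out 1 library gave 83 to 119 and 107 to 155 pairs. With CD4 PD-1 engagement edgeR gave 102 and 10 starts. Quantile normalization gave 32 higher pairs and at least 3 RPM in both clusters 54 and 1. Lower pairs numbered 3 with a pseudocount of 0.5 RPM, 8 with the block and 8 with the most abundant partner. Leaving out 1 library gave 25 to 70 higher and 19 to 33 lower starts, and 31 to 133 higher and 4 to 13 lower pairs.

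Of 132 named values, 34 lost the call under at least 1 alternative, and 4 reversed. Zmym5 was -0.90 and Rbx1 0.67 with the lowest stimulating dose as the reference, and with the most abundant partner Ywhaz was 0.25 and Sh2d2a -0.23. The causes were not tested. Where numbers do not pair libraries, a block by replicate number gave 212 and 26 starts and 150 and 46 pairs for hybridoma stimulation, 162 and 295 starts and 140 and 177 pairs for CD4 stimulation, and 54 and 35 starts and 113 and 8 pairs for CD4 PD-1 engagement. Depth limits the low starts, and those beside Nr4a1, Bcat1 and Slc3a2 rest on 1, 2 and 3 tags at dose 0. The starts beside Uhrf1bp1l in the hybridoma and Klhdc2 in CD4 cells rest on 2 tags each, and those beside Egr2 on 4 and 1.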
